A study of Mus musculus with 6 samples.

Results

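The genes described here encode the subunits of the transcription factor NF-kB and the proteins that hold it back, measured in Ba/F3 cells with and without the fusion protein NCOR1-LYN. The list named 10 genes, and every probe set annotated to 1 of them alone was taken. This gave 17 of the 45101 probe sets of the array, for 9 of the 10 genes. Nfkb1 was not analysed here. Of the 17 probe sets, 15 lay above the level below which dim probe sets were left out (a signal of about 47), and each of the 9 genes had at least 1 such probe set. The 9 genes were therefore all among the 10916 genes tested.

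Ba/F3 is a mouse pro-B cell line that depends on interleukin 3. The cells carried NCOR1-LYN under a doxycycline-inducible retroviral Tet-on system, and the construct joins parts of the nuclear receptor corepressor NCOR1 and of the SRC family kinase LYN. NCOR1-LYN cells had received doxycycline (3 arrays), and control cells were uninduced (3 arrays). Total RNA of triplicate cultures was measured on 1 array per sample, and the dose and time of doxycycline were not given in the sources used here. The drug went to every NCOR1-LYN culture and to no control culture, so the 2 cannot be told apart. The labels do not say how far the cultures were independent, and p-values refer only to differences among these 6 arrays.

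NF-kB proteins are dimers of REL family subunits. In resting cells they are kept in the cytoplasm by inhibitors of the IkB family, which the IKK kinase complex marks for destruction when receptors of the TNF, interleukin 1 or Toll-like type are engaged. Freed dimers enter the nucleus and switch on, among others, the genes of their own inhibitors, which closes a feedback loop that has been studied widely in lymphoid and myeloid cells.

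Replicate 1 of both groups stood apart from replicates 2 and 3. In a principal component analysis of log2 signals, the leading component held 58% of the variance, and on it the NCOR1-LYN arrays lay at −24.9, 18.6 and 17.5 and the control arrays at −37.2, 12 and 14. Same-numbered arrays were therefore also compared as pairs, and results are given without both replicate 1 arrays where that changed a call. Of the pro-B markers, Ebf1, Cd79a, Vpreb1, Rag1, Rag2, Il7r, Dntt and Blnk lay below the signal of 47 in both groups, while Ptprc averaged 9617 in NCOR1-LYN and 9712 in control cells, Cd79b 435.9 and 471.1, Igll1 82.7 and 64.4 and Pax5 63.7 and 75.7. The summed signal of the 13 myeloid markers was 7768 to 10590 in NCOR1-LYN cells and 2755 to 3006 in control cells, led by Ngp (4439 and 822) and Prtn3 (3618 and 1195). Not all of these markers lay higher in NCOR1-LYN cells, with S100a9 at 65.5 and 105.2, S100a8 at 18.3 and 89.0 and Csf1r at 139 and 147. Of these 13 markers 7 lay above the signal of 47, and Camp, Csf3r and Fcgr3 lay below it in both groups. The part of the myeloid markers in the results that follow was not tested. The 7 mast cell and basophil markers summed to 8191 to 9528 in NCOR1-LYN and 8284 to 15340 in control cells, with Cpa3, Mcpt8 and Kit below 47 in both. That sum joined opposite differences of its brightest genes, Fcer1a (3234 and 567.9) and Gata2 (5461 and 9843). The sums of the 6 T and NK cell markers (533.4 to 650.3 and 250.4 to 532.9) and of the 5 fibroblast markers (63.76 to 128.4 and 100.2 to 193.4), NCOR1-LYN and control, were low. In RNA of a whole culture, fewer cells that express a gene and less RNA per cell cannot be told apart.

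All 9 genes had a lower mean in NCOR1-LYN than in control cells, but none passed an adjusted p of 0.05. The median log2 change was −0.46 for the 5 inhibitor genes and −0.14 for the 4 subunit genes. The medians of pairs 1, 2 and 3 were −0.84, −0.46 and −0.26 for the inhibitors and −0.06, −0.21 and −0.35 for the subunits, so the order turned in pair 3, and without both replicate 1 arrays they were −0.335 and −0.29. The difference between the roles was not tested. The largest change was that of Nfkbia, at −0.72. In limma, with Benjamini-Hochberg adjustment over the 10916 genes, 0 of the 9 genes passed, both without the replicate number as a block (0.0824% of all genes passed) and with it (0.824%). At an unadjusted p of 0.05, 3 of the 9 were lower without the block (Relb, Nfkbia and Tnip1), against 2.78% of all genes, and 4 with it (Nfkbia, Nfkbie, Tnfaip3 and Tnip1), against 6.72%. The signals of the groups did not overlap for 5 of the 9 genes, all lower in NCOR1-LYN cells, while 6.06% of all genes were lower without overlap. In 6 of the 9 all 3 pairs were lower, against 18.9% of all genes. The median log2 change of the 9 genes was −0.36, and −0.01 over all genes tested, of which 52.8% lay below 0. The −0.36 is the value of Relb, a dim gene. Over the 9 genes the median was −0.24, −0.295 and −0.26 in pairs 1, 2 and 3.

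**Figure D1:**
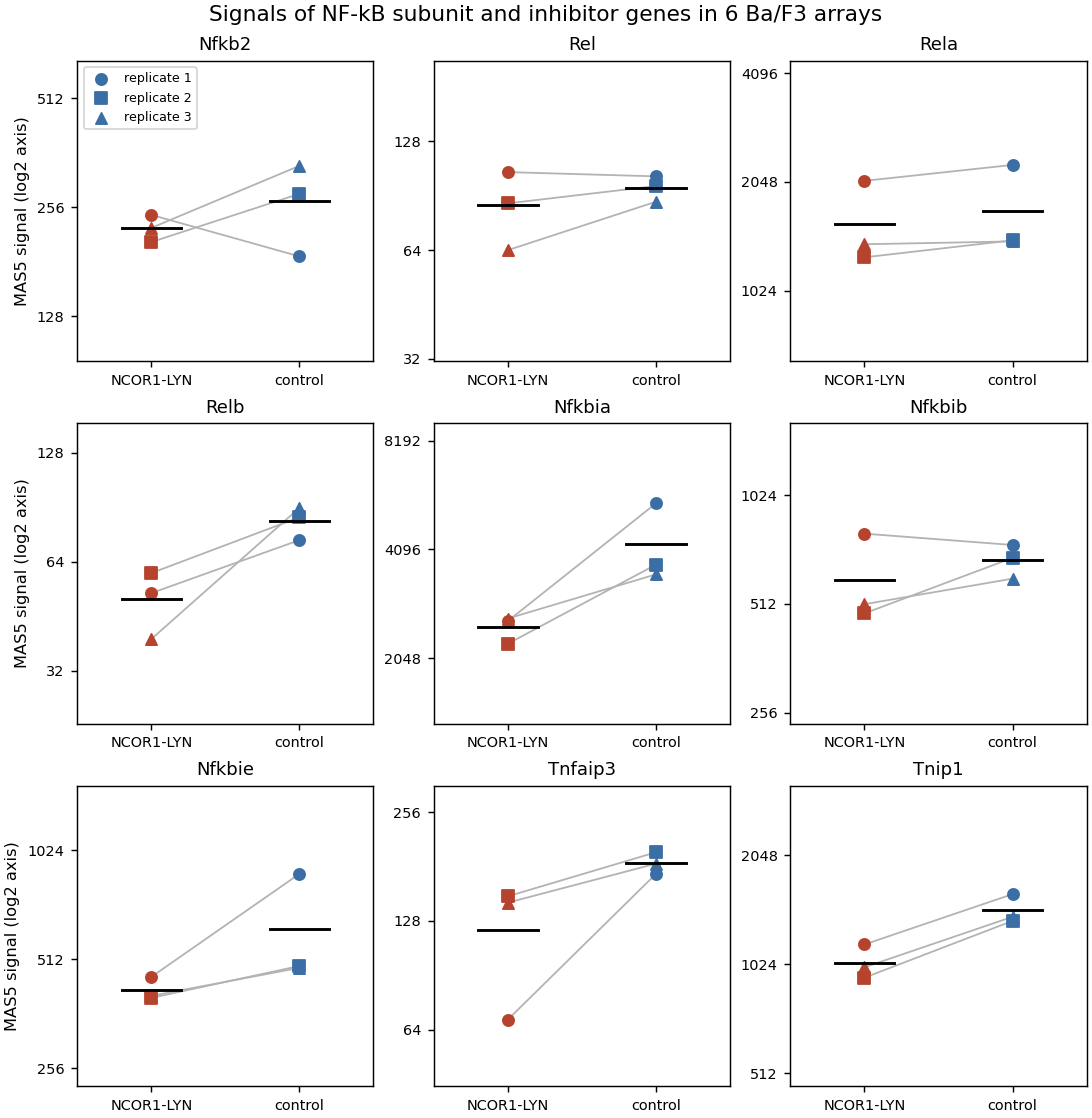
MAS5 signal (log2 axis) of the brightest probe set of each of the 9 genes in NCOR1-LYN (red) and control (blue) arrays, with grey lines joining arrays of the same replicate number and black bars at the group means. In Relb, Nfkbia, Nfkbie, Tnfaip3 and Tnip1 every NCOR1-LYN array lay below every control array, and in Nfkb2, Rel, Rela and Nfkbib the groups overlapped.

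Among the subunits, Rela (probe set 1419536_a_at), which encodes p65, the main activating subunit, gave signals of 2062, 1267 and 1377 in NCOR1-LYN replicates 1, 2 and 3, against 2282, 1412 and 1402 in control replicates 1, 2 and 3. Rela differed more between replicates than between groups. Replicate 1 lay above the mean of replicates 2 and 3 by 0.618 on the log2(signal + 64) scale in NCOR1-LYN cells and by 0.673 in control cells, and the change between the groups was −0.11 ± 0.25 (SE, 95% interval −0.69 to 0.48). Within pairs the change of Rela was −0.14, −0.15 and −0.02, and with the replicate block the interval ran from −0.33 to 0.12 (adjusted p = 0.722 in limma).

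Rel (1420710_at), the gene of c-Rel, a subunit known for its role in lymphocytes, was dim. Its signals were 105.1, 86.1 and 63.9 in NCOR1-LYN cells, against 102.3, 96.2 and 87.0 in control cells, so the groups overlapped. Its log2 change was −0.10 ± 0.16 (SE).

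Nfkb2 encodes p100, which restrains RelB-containing dimers and is processed to the subunit p52. Its brighter probe set (1425902_a_at) gave signals of 244, 205.2 and 224.6 in NCOR1-LYN cells, against 187.3, 279 and 333.4 in control cells. The log2 change was 0.29 in pair 1, against −0.35 and −0.46 in pairs 2 and 3, and the overall change was −0.17 ± 0.20 (SE), or −0.36 to −0.03 without each array in turn. The second probe set (1429128_x_at), whose suffix marks probes that can bind other transcripts, had a log2 change of −0.01.

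Relb (1417856_at), the partner of p52 in the alternative NF-kB pathway, gave signals of 52.4, 59.5 and 39.1 in NCOR1-LYN cells, against 73.5, 84.9 and 90.1 in control cells. It was the only subunit gene of the 4 whose groups did not overlap, and it lay close to the level of 47 at which dim genes were left out, where MAS5 signals are noisy. Its log2 change was −0.36 ± 0.15 (SE, unadjusted p = 0.0409 and adjusted p = 0.989 in limma), with −0.24, −0.27 and −0.58 in pairs 1, 2 and 3.

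Nfkbia encodes IkBalpha, the inhibitor that binds p65-containing dimers and is made again quickly after NF-kB activation. It had 5 probe sets, more than any other of the 9 genes. The brightest (1420088_at) gave signals of 2597, 2247 and 2638 in NCOR1-LYN cells, against 5493, 3717 and 3494 in control cells. The control replicate 1 array was the highest of all, and the 3 NCOR1-LYN arrays lay close together below all controls. The log2 change was −0.72 ± 0.19 (SE), a fold of 0.606, with −1.06, −0.71 and −0.40 in pairs 1, 2 and 3. Nfkbia ranked 146 of 10916 genes by p with the replicate block, and its adjusted p in limma was 0.548 without and 0.0829 with the block (95% interval −1.04 to −0.40). Without both replicate 1 arrays it passed as lower, by −0.55 ± 0.08 (SE, adjusted p = 0.00322 in limma).

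The other 4 probe sets of Nfkbia were lower in NCOR1-LYN cells as well, with no overlap between the groups in any of the 5. Of all genes tested, 6.06% were lower without overlap, and the share over all probe sets is not given here. Probe set 1438157_s_at gave 1144, 1547 and 1415 in NCOR1-LYN cells, against 2948, 2378 and 1996 in control cells. Probe set 1448306_at, designed on the RefSeq transcript, gave 690.9, 685.7 and 653.9 in NCOR1-LYN cells, against 1344, 942.6 and 940.9 in control cells. Their log2 changes were −0.80 and −0.60, and those of 1449731_s_at and 1420089_at were −0.55 and −0.43. In a fit of all 20240 probe sets above the dim level, 0 of the 15 member probe sets passed in limma without a block (0.0346% of all passed) or with it (0.751%). Without both replicate 1 arrays 5 of the 15 passed, 4 of Nfkbia and that of Tnip1, all lower, against 2.4% of all probe sets. Probe sets of 1 gene share their RNA samples and are not replicates of the condition.

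**Figure D2:**
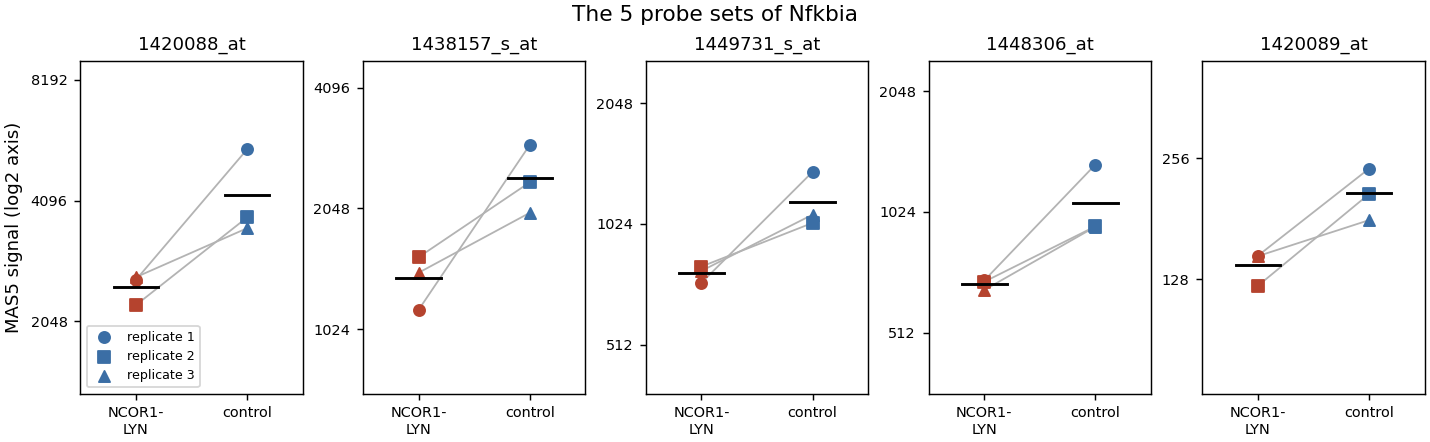
MAS5 signal (log2 axis) of the 5 probe sets of Nfkbia in NCOR1-LYN (red) and control (blue) arrays, with lines joining same-numbered arrays and black bars at group means. In each panel the 3 NCOR1-LYN arrays lay below the 3 control arrays, and control replicate 1 was the highest array.

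Tnip1 (1427689_a_at) encodes ABIN-1, a ubiquitin-binding protein that works with A20 to limit NF-kB activation. Its signals were 1162, 940.6 and 1005 in NCOR1-LYN cells, against 1601, 1350 and 1386 in control cells. The pairs were close to each other, at −0.44, −0.49 and −0.44 on the log2 scale, and the groups did not overlap. The log2 change was −0.46 ± 0.14 (SE), with an adjusted p in limma of 0.704 without and 0.111 with the block. Without both replicate 1 arrays Tnip1 passed as lower, by −0.47 ± 0.08 (SE, adjusted p = 0.00602 in limma). In that fit 2 of the 9 genes passed, Nfkbia and Tnip1, while 3.64% of all genes passed as lower. It held 2 arrays per group.

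Tnfaip3 encodes A20, the ubiquitin-editing enzyme that shuts off signalling upstream of the IKK complex. Its brighter probe set (1433699_at) gave 68.3, 149.7 and 143.8 in NCOR1-LYN cells, against 172.7, 198.2 and 184.3 in control cells. NCOR1-LYN replicate 1 was the lowest array, and the pairs were −0.84, −0.29 and −0.26. The log2 change was −0.46 ± 0.21 (SE, adjusted p = 0.999 in limma), and −0.28 without both replicate 1 arrays (adjusted p = 0.354). The second probe set (1450829_at) lay below the dim level and its groups overlapped.

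Nfkbie encodes IkBepsilon, which is induced later than IkBalpha and binds RelA and c-Rel. Probe set 1458299_s_at gave 457.6, 400.3 and 405.6 in NCOR1-LYN cells, against 881.9, 490.6 and 484.8 in control cells. Control replicate 1 stood far above the other arrays, and the pairs were −0.86, −0.26 and −0.22. The log2 change of −0.45 ± 0.23 (SE, adjusted p = 0.999 in limma) was −0.24 without both replicate 1 arrays (adjusted p = 0.24), so the size of the Nfkbie change came largely from pair 1. The second Nfkbie probe set (1431843_a_at) overlapped between groups, with pair changes of −0.67, −0.05 and 0.07.

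Nfkbib encodes IkBbeta, an inhibitor that is not resynthesised as quickly as IkBalpha. Its brighter probe set (1421266_s_at) gave 801, 482.1 and 511.1 in NCOR1-LYN cells, against 745.2, 686.6 and 601.4 in control cells. The groups overlapped because NCOR1-LYN replicate 1 was the highest array, and the log2 change was −0.19 ± 0.20 (SE, 95% interval −0.67 to 0.29). Without each array in turn it ran from −0.40 to −0.07. The second probe set lay below the dim level.

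**Figure D3:**
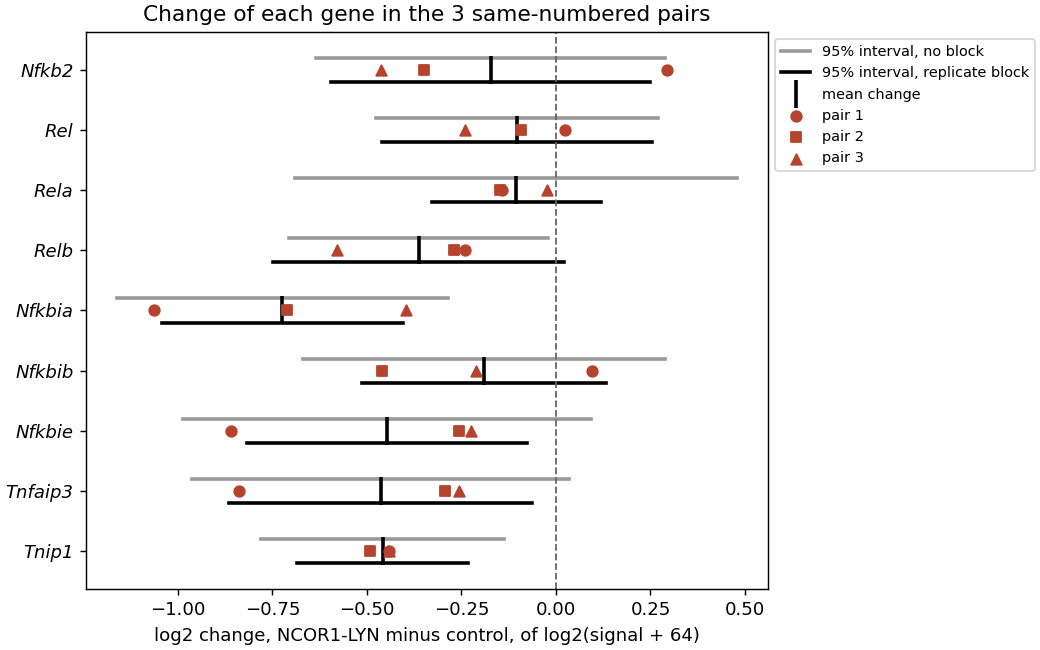
Log2 change (NCOR1-LYN minus control, of log2(signal + 64)) of each gene in the 3 same-numbered pairs (circle, square and triangle for pairs 1, 2 and 3), with the mean and its 95% intervals without (grey) and with (black) the replicate block. The blocked intervals of Nfkbia, Nfkbie, Tnfaip3 and Tnip1 lay below 0, before adjustment over all genes, and pair 1 gave the largest change in Nfkbia, Nfkbie and Tnfaip3.

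The change of each gene was also set against that of Rela on the same arrays, which removes any shift shared by a whole array. Relative to Rela, Nfkbia changed by −0.618 on the log2 scale (SD 0.278 over 3 pairs), Tnfaip3 by −0.358 (SD 0.297), Tnip1 by −0.353 (SD 0.058), Nfkbie by −0.341 (SD 0.328) and Nfkbib by −0.086 (SD 0.287). Of the subunits, Relb changed by −0.258, Nfkb2 by −0.067 and Rel by 0.002 relative to Rela. The difference to Rela did not overlap between the groups for Nfkbia and Nfkbie (exact permutation p = 0.1, two-sided, the smallest that 3 against 3 arrays allow), while it overlapped for the other 6 genes. Overlap and permutation took no account of the pairs, and the replicate 1 shift of Rela entered each difference. Tnip1 (−0.300, −0.344 and −0.415), Tnfaip3 and Relb overlapped although their difference to Rela was below 0 in all 3 pairs. The share without overlap was not counted over all genes, so it cannot be said whether such non-overlap was unusual. Nfkbia and Nfkbie also did not overlap in their own signals. For Nfkbie only probe set 1458299_s_at was set against Rela, and its other probe set (1431843_a_at) overlapped between the groups in its own signals. A difference to Rela shows unequal change of the 2 genes and not that Rela was constant.

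Because several of these inhibitors are known to be induced by NF-kB itself, the promoters of the genes were searched for kB motifs. RefSeq promoters (GRCm38.p6, 250 bases before to 50 after the start) were on hand for 8 of the 9 genes. The gene without one was Relb, whose groups did not overlap, so it was not searched. The kB consensus, in which runs of G and C enclose a purine, any bases and pyrimidines, was searched on both strands. A match was found in 6 of the 8 genes, against 12.1% of the tested genes with a promoter and 9.55% of all genes with one. Counted by promoter, it was found in 8 of 11, against 8.46% of all promoters. Rela and Nfkbib held no match. The promoters of the 4 inhibitor genes whose groups did not overlap are shown beside those of Rel and Nfkb2 (the first of its 3), which held a match while their signals overlapped, and of Rela, 5′ to 3′, with matches to the kB consensus in capitals, overlapping ones merged.
Nfkbia (chr12:55492598-55492897, minus strand): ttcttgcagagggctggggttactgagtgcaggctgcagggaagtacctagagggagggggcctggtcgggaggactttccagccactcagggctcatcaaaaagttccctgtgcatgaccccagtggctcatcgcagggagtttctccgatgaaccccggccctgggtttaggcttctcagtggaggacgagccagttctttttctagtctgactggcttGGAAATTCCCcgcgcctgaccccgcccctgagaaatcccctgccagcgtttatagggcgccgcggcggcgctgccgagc
Tnip1 (chr11:54962891-54963190, minus strand): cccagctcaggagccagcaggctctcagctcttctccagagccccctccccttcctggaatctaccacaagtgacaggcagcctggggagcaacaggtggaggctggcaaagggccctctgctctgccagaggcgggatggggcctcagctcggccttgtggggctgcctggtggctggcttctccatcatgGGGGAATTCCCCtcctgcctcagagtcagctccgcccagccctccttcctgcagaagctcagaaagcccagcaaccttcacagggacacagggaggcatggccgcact
Tnfaip3 (chr10:19015361-19015660, minus strand): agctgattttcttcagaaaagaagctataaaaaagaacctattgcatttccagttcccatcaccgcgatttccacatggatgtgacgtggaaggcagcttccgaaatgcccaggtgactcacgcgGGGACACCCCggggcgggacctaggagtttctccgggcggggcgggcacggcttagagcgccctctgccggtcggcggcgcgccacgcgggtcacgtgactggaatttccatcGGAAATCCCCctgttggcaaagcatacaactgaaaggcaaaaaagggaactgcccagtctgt
Nfkbie (chr17:45555450-45555749, plus strand): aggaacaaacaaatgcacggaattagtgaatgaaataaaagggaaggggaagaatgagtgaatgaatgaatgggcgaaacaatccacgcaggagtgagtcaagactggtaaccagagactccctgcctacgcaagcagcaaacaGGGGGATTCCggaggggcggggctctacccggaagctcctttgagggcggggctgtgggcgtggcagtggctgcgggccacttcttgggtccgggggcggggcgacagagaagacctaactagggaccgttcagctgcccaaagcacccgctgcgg
Rel (chr11:23770920-23771219, minus strand): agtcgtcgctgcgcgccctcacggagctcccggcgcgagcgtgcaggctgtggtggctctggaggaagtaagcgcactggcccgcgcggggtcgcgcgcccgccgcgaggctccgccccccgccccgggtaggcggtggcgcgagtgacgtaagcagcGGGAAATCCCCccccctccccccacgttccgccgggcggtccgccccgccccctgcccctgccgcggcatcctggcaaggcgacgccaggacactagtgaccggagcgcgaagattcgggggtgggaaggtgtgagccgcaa
Nfkb2 (chr19:46304487-46304786, plus strand): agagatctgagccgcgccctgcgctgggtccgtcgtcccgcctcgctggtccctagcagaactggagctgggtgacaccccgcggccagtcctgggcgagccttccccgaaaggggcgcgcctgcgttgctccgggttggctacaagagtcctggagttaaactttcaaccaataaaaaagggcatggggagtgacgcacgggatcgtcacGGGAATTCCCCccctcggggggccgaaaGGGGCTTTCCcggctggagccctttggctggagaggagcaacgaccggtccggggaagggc
Rela (chr19:5637291-5637590, plus strand): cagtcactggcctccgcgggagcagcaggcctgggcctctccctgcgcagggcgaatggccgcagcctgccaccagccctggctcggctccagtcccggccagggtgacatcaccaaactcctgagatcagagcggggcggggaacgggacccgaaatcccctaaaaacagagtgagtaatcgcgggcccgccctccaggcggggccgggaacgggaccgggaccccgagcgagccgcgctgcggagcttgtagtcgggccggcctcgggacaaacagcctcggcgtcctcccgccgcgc

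In the Nfkbia promoter the match GGGAATTTCC lay on the opposite strand with its leftmost base at −29 from the start. That of Tnip1 was a palindromic stretch beginning at −58, Nfkbie had GGGGGATTCC at −106, and Tnfaip3 had matches beginning at −125 and at −12. The second promoter of Tnfaip3 held none, and all 3 promoters of Nfkb2 held at least 1 match. Promoters 2 and 3 of Nfkb2 overlap, and the only match of promoter 3 is a site that promoter 2 also holds. The promoters of the genes were rich in G and C, with a median of 64.3% against 60.7% over tested genes. Of the pathway and target genes tested that had a promoter, 25.8% and 38.5% held a match. Of the 6 genes with a match, Rel and Nfkb2 had signals that overlapped between the groups, so a match did not go with non-overlap in every gene. A match is a description of the sequence and not a bound site.

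The other components of the pathway gave no call. Of 57 listed receptors, adaptors, kinases and regulators, 44 were tested, and 0 passed in limma with or without the block. Of the 44, 31 lay below 0 and 13 above, against 52.8% of all genes below 0, and the median log2 change was −0.07. At an unadjusted p of 0.05 with the block, 3 of the 44 were higher, against 4.57% of all genes, and 3 lower, against 6.72%. The IKK subunit genes Ikbkb and Ikbkg, named for their role after their values were seen, had log2 changes of 0.08 ± 0.17 and −0.12 ± 0.26 (SE). The genes of nuclear IkB proteins were also named after their values were seen. Nfkbiz, which encodes IkBzeta, had 0.32 ± 0.14 with 0.50, 0.23 and 0.23 in the pairs, and Nfkbid, which encodes IkBNS, had −0.10 ± 0.42 with 0.37, −0.07 and −0.58.

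Among the pathway genes with the largest blocked t, 2 negative regulators lay higher and 2 lower in NCOR1-LYN cells. Commd1, which encodes a protein that promotes removal of RelA, gave 4113, 4059 and 4123 in NCOR1-LYN cells, against 2252, 3525 and 3164 in control cells, without overlap. Nkiras2, which encodes a Ras-like protein that binds IkB proteins, gave 941, 883.4 and 971 in NCOR1-LYN cells, against 668.7, 813.7 and 777.4 in control cells. Pdlim2, the gene of a nuclear ubiquitin ligase for RelA, gave 669.5, 624 and 779.1 in NCOR1-LYN cells, against 1261, 896.2 and 884.2 in control cells. Tax1bp1, an adaptor of A20, gave 8364, 10470 and 10860 in NCOR1-LYN cells, against 10120, 12930 and 12880 in control cells, and its groups overlapped. Of the 44 pathway genes tested, 3 were higher and 1 lower without overlap, against 565 and 661 of all 10916 genes. The log2 changes of Commd1, Nkiras2, Pdlim2 and Tax1bp1 were 0.48, 0.29, −0.50 and −0.27, with adjusted p of 0.237, 0.405, 0.253 and 0.288 in limma with the block. Commd1 passed as higher (0.29, adjusted p = 0.0377 in limma) and Tax1bp1 as lower (−0.27, 0.0233) without both replicate 1 arrays.

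Of 45 listed NF-kB target genes other than those above, 29 were tested, with 21 below 0 and 8 above and a median log2 change of −0.16. Over all genes tested, 52.8% lay below 0. Without a block 0 passed in limma, and 4 of the 29 were lower at an unadjusted p of 0.05, against 2.78% of all genes. With the block 1 of 29 fell, Ebi3, against 0.559% of all genes. Ebi3, which encodes a shared subunit of interleukins 27 and 35, gave 676.5, 686.4 and 760.6 in NCOR1-LYN cells, against 1175, 1226 and 1222 in control cells. Its log2 change was −0.72 ± 0.10 (SE with the block, adjusted p = 0.0336 in limma), with −0.74, −0.78 and −0.64 in the pairs.

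Il6, the gene of interleukin 6, had the largest change of the list and lay higher in NCOR1-LYN cells. It gave 887.2, 6027 and 6286 in NCOR1-LYN cells, against 657.2, 2125 and 2099 in control cells. Replicate 1 was low in both groups, the groups overlapped, and the log2 change was 1.14 ± 0.22 (SE with the block, adjusted p = 0.0869 in limma). Without both replicate 1 arrays it passed as higher, by 1.515 (adjusted p = 9.45e-07). The ubiquitin ligase gene Rnf19b and the immediate early gene Ier2 did not overlap between groups, with log2 changes of −0.44 and −0.33 and adjusted p of 0.233 and 0.299 in limma with the block. Of the 29 target genes, 8 were lower without overlap, against 6.06% of all genes, and 0 were higher without overlap. Ier2 passed as lower without both replicate 1 arrays (−0.44, adjusted p = 0.00242 in limma). Without both replicate 1 arrays, 2 of 9 members, 6 of 44 pathway genes (3 higher and 3 lower) and 7 of 29 target genes (3 higher and 4 lower) passed in limma, against 6.82% of all genes.

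**Figure D4:**
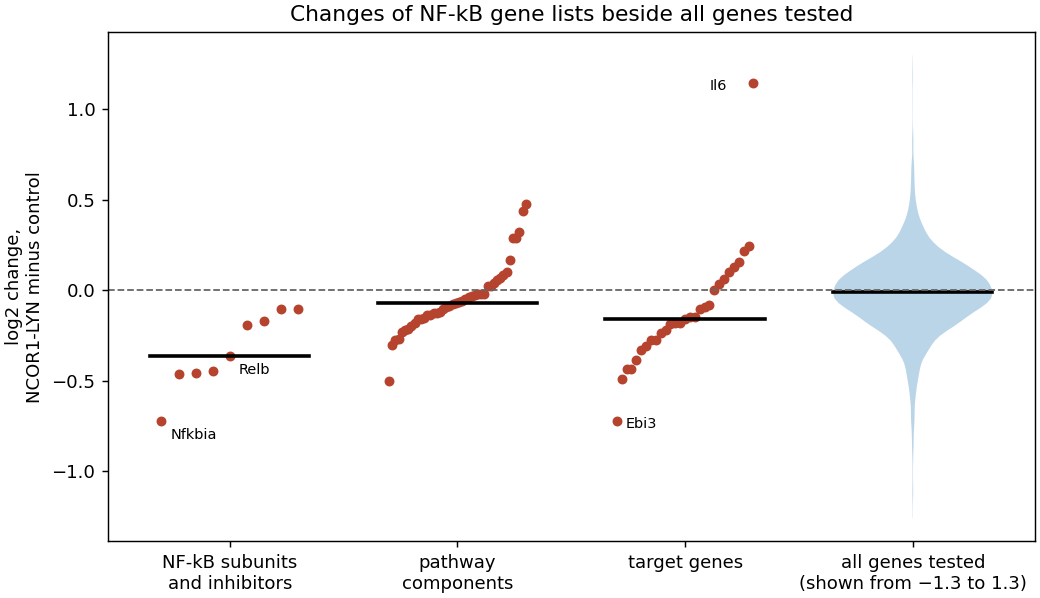
Log2 change (NCOR1-LYN minus control) of each tested gene of the 3 lists, sorted within a list, with black bars at the medians, beside the distribution over all genes tested. The 9 NF-kB subunit and inhibitor genes all lay below 0 with a median of −0.36, while the pathway genes had a median of −0.07, the target genes −0.16 and all genes −0.01.

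The genes whose profile over the 6 arrays was nearest to that of Nfkbia were Susd3, Gm19696, Eno3 and Col5a1. Their root mean square differences to Nfkbia, of log2 values centred over the 6 arrays, were 0.0593, 0.0807, 0.0853 and 0.0863. Like Nfkbia, each had its largest change in pair 1 and its smallest in pair 3, with −1.15, −0.83 and −0.43 for Susd3. The genes were chosen by closeness to Nfkbia over the same 6 arrays, so the shared order is not a separate finding.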

How the data were processed

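RNA was labelled with biotin by a 3′ IVT kit and hybridised to Affymetrix Mouse Genome 430 2.0 arrays, 1 per sample. The deposited table holds MAS5 intensities, linear and not logged, and per the submitters' processing notes the authors used MAS5 (its version is not given in the sources used here). From the values, the trimmed mean (2% off each end) is 500 on every array. MAS5 subtracts a background and mismatch signal, so dim signals are noisy, and no detection calls were used. Median signals were 54.6 to 61.7, and precision is limited by the number of arrays.

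Values were used as log2(signal + 64), which understates changes of dim genes. Of 45101 probe sets, 34945 had exactly 1 symbol in the platform annotation, 932 had several, 9160 had none and 64 were controls. Of several probe sets of a gene, that of highest mean stood for it. Of 18193 genes, the lowest 40% by mean (signals under about 47) were dropped, leaving 10916. Symbols checked through Entrez identifiers against GRCm38.p6 gene names changed in 0 cases. No build belongs to the array values.

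Tests used limma 3.58.1 (R 4.3.3, lmFit, eBayes with trend), NCOR1-LYN minus control, all 6 arrays, no covariate, two-sided, adjusted p of 0.05 by Benjamini-Hochberg. The fit was tested on simulated data. Groups and replicate numbers came from the sample labels. Deviations from the group means correlated across genes at 0.617, 0.409 and 0.439 between same-numbered arrays (1, 2 and 3), all over 0.1, and the numbers were treated as pairing them. NCOR1-LYN 3 with control 2 gave 0.393 and NCOR1-LYN 2 with control 3 gave 0.485, so replicates 2 and 3 are not told apart. Deviations sum to 0 within a group. With replicate 1 apart in both groups, correlations among replicates 2 and 3 therefore tend to be positive whatever the pairing. Passing 0.1 is no test of pairs 2 and 3, on which the blocked fit also rests. The members, lists, tests and alternatives were chosen with earlier results of these data known. The text names all members, and of the pathway and target lists each gene past the threshold with or without the block, the 4 with the largest blocked t and the largest change. Genes outside this rule are said to be so.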

Additional observations from a re-analysis of the deposited data

How the results depend on the processing

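In limma 0 of the NF-kB genes and 0 of their probe sets passed without the replicate block, with it, with offsets 4 times smaller and 4 times larger than 64, no filter or the 60th percentile, quantile normalization, the mean of the probe sets of a gene (genes only), or without each array in turn (0 to 0). The exceptions were array weights, with 2 genes and 5 probe sets, and leaving out both replicate 1 arrays, with 2 and 5. The genes were Nfkbia and Tnip1 in both. Replicate 1 had low weights (0.209 for NCOR1-LYN and 0.161 for control), so these 2 settings are not separate support. Pathway genes passing were 0 with all arrays, 2 under array weighting and 6 if both replicate 1 arrays were dropped, and target genes 0, 6 and 7, with 1 under the replicate block. Without each array in turn both lists gave 0 to 0. The replicate block changed no call of the members.

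The median of the 9 genes, −0.36, was −0.48 and −0.15 with the smaller and the larger offset, −0.45 with the 60th percentile, −0.41 with quantile normalization, −0.32 under array weighting, −0.33 with the mean of the probe sets of a gene, −0.33 if both replicate 1 arrays were dropped, and −0.40 to −0.29 without each array in turn. The 60th percentile tested fewer genes. A larger offset shrinks changes of dim genes by construction, and the median of −0.15 with it was the value of Relb, as was the −0.36. For the other settings the cause was not tested. Without each array in turn, Rela ran from −0.31 to 0.12 (0.12 without control 1 and 0.03 without NCOR1-LYN 2) and Rel from −0.20 to 0.0023 (without NCOR1-LYN 3). Over all genes 9 passed, and 90 with the block, 502 under array weighting, 744 if both replicate 1 arrays were dropped, 12 with quantile normalization, 6 with the larger offset, 1 without the filter, 1 with the 60th percentile and 0 to 15 without each array in turn. Relb, Rel and the dimmer probe sets lay close to the level where MAS5 signals are noisy.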

Other observations

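The pairs of 3 pathway genes, chosen after their values were seen, had opposite signs in pair 1 and in pairs 2 and 3. Other pathway genes had the same split, among them Map3k14, Nfkbid, Tnip2 and Tradd, so it was not particular to these 3. Its share over all genes was not counted. Irak1, a kinase downstream of Toll-like and interleukin 1 receptors, had log2 changes (NCOR1-LYN minus control) of −0.41, 0.87 and 0.85 in pairs 1, 2 and 3, and the adaptor gene Myd88 of −0.07, 0.51 and 0.43. Tlr4, the receptor for bacterial lipopolysaccharide, had 0.90, −0.46 and −0.37. Other genes of the same branch had other patterns, with −0.04, 0.04 and −0.15 for Traf6, 0.11, 0.18 and 0.01 for Map3k7 and −0.12, −0.25 and −0.29 for Tab2. Tab2 passed as lower without both replicate 1 arrays (−0.27, adjusted p = 0.0385 in limma). Of Irak1, Myd88 and Tlr4, none passed in limma with all arrays, with or without the block. With replicate 1 of both groups left out, Irak1 (0.86, adjusted p = 0.00103 in limma) and Myd88 (0.47, 0.00242) passed as higher and Tlr4 (−0.42, 0.0418) as lower. In that fit 6.82% of all genes passed. Its p-values reuse the values by which these genes were chosen and are no separate support. The Irak1 probe set carries the suffix for probes that can bind other transcripts.

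Among the targets, Bcl2l1, which encodes the survival protein BCL-XL, and Sqstm1, which encodes the autophagy receptor p62, were split in the same way (also chosen after their values were seen). So were other targets, among them Cd44, Ier3 and Tapbp. Bcl2l1 had 0.30, −0.53 and −0.70 and Sqstm1 0.12, −0.62 and −0.67 in pairs 1, 2 and 3. Without both replicate 1 arrays, Bcl2l1 and Sqstm1 passed as lower in limma (adjusted p = 0.003 and 0.00028). The targets Sod2 and Plek passed as higher in that fit (0.0467 and 0.0483). Bcl2l1, Sqstm1, Sod2 and Plek were named after their values were seen, so these calls are no separate support. The difference between the pairs was not tested.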
